A study of Capra hircus with 2 samples.

Results

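The miR-99, miR-100 and miR-125 family was described in the endometrium of dairy goats. Its members were taken by name from the deposited table of known miRNAs: every entry named miR-99a, miR-99b, miR-100, miR-125a or miR-125b, with any species prefix, arm or end annotation. This gave 9 of the 587 known names, each listed in 1 entry. The small RNA of 2 libraries was sequenced, 1 from the receptive (R) and 1 from the pre-receptive (P) endometrium, to compare miRNA expression before and during the time when an embryo can implant. The R library came from goats at gestational day 15 and the P library from goats at gestational day 5. All were healthy multiparous Xinong Saanen goats of 24 months after induced estrus and natural mating, and 10 were collected for each phase. By the study's methods the RNA of lowest quality was left out and the rest of each phase was mixed into smaller pools and sequenced repeatedly for 1 library, so that fewer than 10 goats stand behind each library. The values therefore carry no spread between animals, and every interval or test on reads below compares 2 libraries and not 2 phases. In bulk tissue, fewer cells of a type and less RNA per cell cannot be told apart.

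A miRNA is cut from a hairpin precursor whose 5p and 3p arms can each give a mature strand, and it pairs with target mRNAs mainly through its seed, the bases near its 5′ end. The miR-99 and miR-100 strands are close relatives of the miR-10 strands and are known for repressing MTOR, a kinase that promotes growth, while miR-125 is the vertebrate counterpart of lin-4, a timing regulator of the nematode. In mammals the genes of this family lie in clusters with let-7 genes, from which a common primary transcript can be made.

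The listed sequences are shown first because the names alone do not tell which members are alike. They are written 5′ to 3′ as DNA letters, with bases 2 to 8 (the seed) in capitals. The first 3 names share one seed, the next 3 share another, the 3p strands of miR-99a and miR-99b share the next, and the miR-125b-2 3p strand stood alone.
oar-miR-99a_R+2: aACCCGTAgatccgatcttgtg
hsa-miR-100-5p: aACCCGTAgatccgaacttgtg
hsa-miR-99b-5p_R-1: cACCCGTAgaaccgaccttgc
hsa-miR-125b-5p: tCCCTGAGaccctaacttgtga
oar-miR-125b_R+2: tCCCTGAGaccctaacttgtgat
sha-miR-125a_R+2: tCCCTGAGaccctaacttgtgaaa
mmu-miR-99a-3p_R+2_1ss9TC: cAAGCTCGcttctatgggtctgt
hsa-miR-99b-3p_R+1: cAAGCTCGtgtctgtgggtccgt
hsa-miR-125b-2-3p_L-2R+2: aCAAGTCAggctcttgggacct

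In these names, L and R followed by a sign and a number give the bases added or missing at the 5′ (L) or 3′ (R) end relative to the reference strand in the table, and "ss" marks a substitution. The miR-99a and miR-100 strands differed at 1 base of 22, T16A, counted from 1 at the 5′ end with the base of miR-99a first. Over 21 bases the miR-99a and miR-99b 5p strands differed at 4, A1C, T11A, T16C and T21C, and none of these lay in bases 2 to 8. The 3p strand of miR-99a carried T9C against its mouse reference, outside the seed. Only for miR-125b-2 3p, among the 9 names, did the end annotation move the seed, since its first base lay 2 bases into the human reference strand.
hsa-miR-125b-2-3p, reference: tCACAAGTcaggctcttgggac
hsa-miR-125b-2-3p_L-2R+2, listed: aCAAGTCAggctcttgggacct
No known name outside the family shared bases 2 to 8 with a member. Of 621 predicted candidates 1, PC-3p-1157065_1, had the seed of miR-125b, and its level was not used here.

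The label miR-125a was not borne out by sequence. The only name with miR-125a was referred to a strand of the Tasmanian devil that is identical over all 22 bases to the listed miR-125b 5p strand, and the listed sequence was that strand with 2 further bases, AA, at its 3′ end. It is treated below as an end variant of miR-125b 5p, so that no level could be given for a miR-125a distinct from miR-125b. No name for the 3p strand of miR-100, the 3p strand of miR-125b-1 or let-7e was among the known names.

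The deposited values are normalized expression (NE), here read as the reads of a name divided by a size factor of its library. The study's methods define NE as reads per 1000000 clean reads, but with each known name counted once NE summed to 1617096 in R and 4689686 in P, so the deposited values do not follow that formula. The worth of 1 read, the most frequent value above 0, was 0.860 NE in R and 1.16 NE in P. With these worths the known names held 1904242 reads in R and 4046632 in P. Of all listed values 77.4% in R and 83.2% in P came out as whole reads within 0.01 of a read, and 97.8% and 98.0% as whole or 0.5 reads. How reads that match several precursors were counted was not tested. All intervals are 95% exact binomial intervals, or exact conditional intervals where ratios are compared. They cover counting error only, since reads after amplification are not independent molecules.

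Among the 5p strands, miR-125b was the most abundant member. hsa-miR-125b-5p had 16828 NE in R (19570 reads) and 27259 NE in P (23440 reads), and it ranked 15 of the 587 names in R and 13 in P. It held 62.8% of the reads of the 9 names in R and 66.3% in P. oar-miR-99a_R+2 had 3851 NE in R and 4666 NE in P, at ranks 37 and 39. hsa-miR-99b-5p_R-1 had 2471 NE in R and 3145 NE in P, at ranks 49 and 45. The miR-99 strands thus lay well above miR-100, whose hsa-miR-100-5p had 416 NE in R (484 reads) and 915 NE in P (787 reads) and ranked 98 in R and 75 in P. The preference of ligation and amplification for particular sequences was not tested, so the order of levels is that of reads.

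The 3p strands were less abundant than the 5p strands of the same hairpin. hsa-miR-125b-2-3p_L-2R+2 had 1898 NE in R and 3135 NE in P, and mmu-miR-99a-3p_R+2_1ss9TC had 987 NE in R and 1458 NE in P. Among the 3p names hsa-miR-99b-3p_R+1 was the lowest, with 75.7 NE in R (88 reads) and 86.1 NE in P (74 reads). The longer forms of miR-125b were rare: sha-miR-125a_R+2 had 229 NE in R and 426 NE in P, and oar-miR-125b_R+2 had 41.7 NE in R and 50.0 NE in P. Each of the 9 names thus had a lower NE in R than in P, a direction that other scalings of the same reads turn, as described next.

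**Figure D1:**
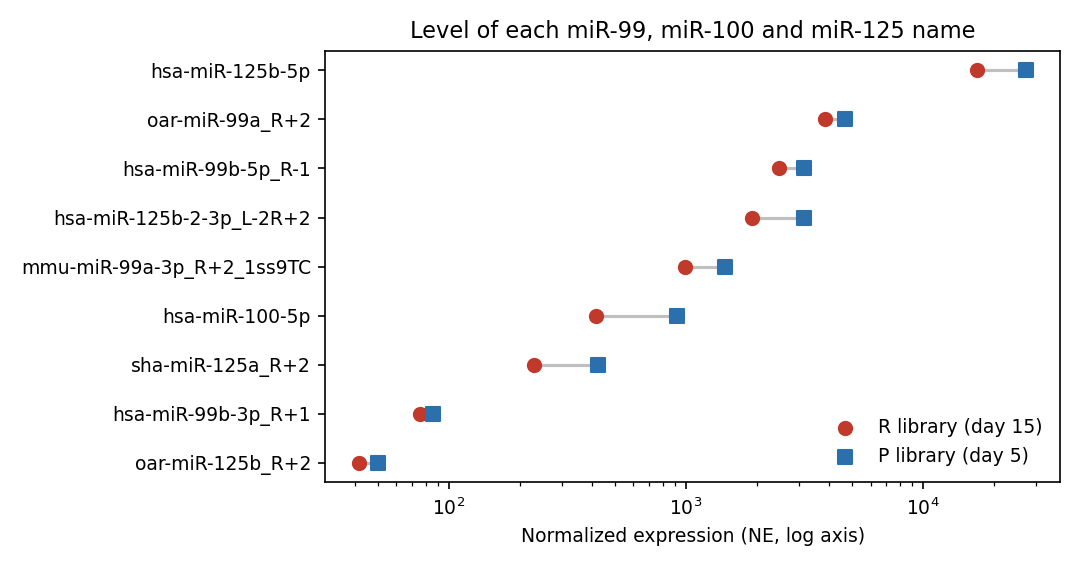
Normalized expression (NE, log axis) of the 9 names in the R library (red circles, day 15) and the P library (blue squares, day 5), 1 library each, with a line joining the pair. On the NE scale every name was lower in R, from hsa-miR-125b-5p at 16828 against 27259 NE down to oar-miR-125b_R+2 at 41.7 against 50.0 NE; scaled by the reads of all known names every one was higher in R.

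The size of the difference was read first on the NE scale and then with other totals. The log2 ratio of R to P ranged from -1.14 for hsa-miR-100-5p (-1.30 to -0.97) to -0.19 for hsa-miR-99b-3p_R+1 (-0.65 to 0.28). It was -0.70 for hsa-miR-125b-5p (-0.72 to -0.67), -0.28 for oar-miR-99a_R+2 (-0.34 to -0.22) and -0.35 for hsa-miR-99b-5p_R-1 (-0.42 to -0.27). The interval of hsa-miR-99b-3p_R+1 and that of oar-miR-125b_R+2 (-0.90 to 0.35) included 0. Summed over the 9 names, NE was 26797 in R and 41140.4 in P, a log2 ratio of -0.62 (-0.64 to -0.60).

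These directions rested on the size factors. Dividing reads by the clean reads of a library added 0.78 to every log2 ratio, and dividing them by the reads of all known names added 1.52. With clean reads 7 of the 9 names were higher in R, and hsa-miR-100-5p (-0.35) and sha-miR-125a_R+2 (-0.11) were lower. Of these differences 3 did not pass Fisher's exact test on the same shares: hsa-miR-125b-2-3p_L-2R+2 (adjusted P = 0.239), oar-miR-125b_R+2 (adjusted P = 0.176) and sha-miR-125a_R+2 (adjusted P = 0.443). With the reads of all known names all 9 were higher in R, hsa-miR-100-5p by a log2 ratio of 0.39. As a share of these reads the family held 1.64% in R (1.62% to 1.65%) and 0.874% in P (0.865% to 0.883%). In P a larger part of that total was taken by 3 names, aja-miR-143_1ss22GT, oar-miR-10a_R+1_1ss12TA and oar-miR-10b_L+1R-1, which together held 68.9% of the reads of known names in P and 36.9% in R. Leaving those 3 names out of the total, which was tried after the data had been seen, gave a summed log2 ratio of -0.12 for the family.

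**Figure D2:**
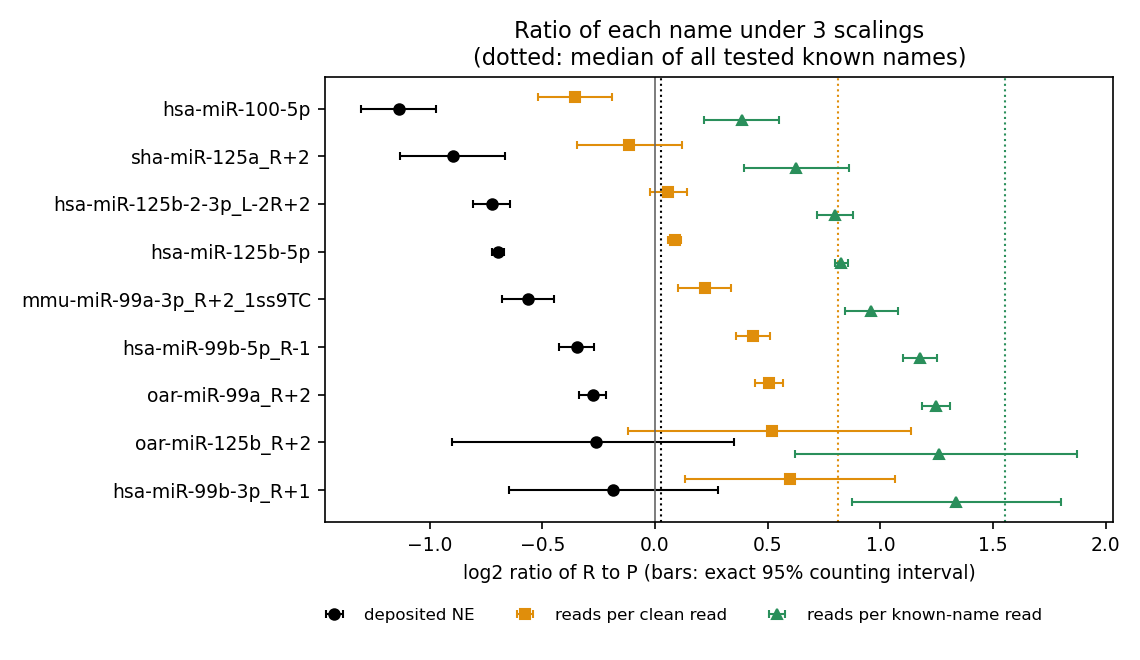
Log2 ratio of R to P of the 9 names (points, with exact 95% counting intervals) on 3 scales: deposited NE (black), reads per clean read (orange) and reads per read of all known names (green), with dotted lines at the median of the 438 tested names on each scale. The points move together between scales, so that hsa-miR-100-5p was lowest on each, at -1.14, -0.35 and 0.39, and every point lay left of its dotted line.

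A position relative to the other known names does not depend on the scaling. Of the 587 names, 438 were above 0 in both libraries with at least 1 NE in 1 of them, and all 9 members were among these. Their median log2 ratio was -0.56 on the NE scale, beside 0.03 for the 438 names, so that the members lay 0.59 below the median of the table on any of the scales. Each of the 9 lay below that median. Abundant names as a whole lay lower, however: the 149 names with at least 100 reads in each library had a median of -0.31. Of the 9 members 6 lay below it, and the members' median was 0.25 lower than theirs, a difference of medians of -0.25. The 9 include hsa-miR-99b-3p_R+1 (88 reads in R, 74 in P) and oar-miR-125b_R+2 (48.5 in R, 43 in P). Both miss that read limit and lay above this median, so the sets compared are not alike in depth. Counted from the lowest of the 438 ratios, hsa-miR-100-5p stood at place 64, hsa-miR-125b-5p at 104 and oar-miR-99a_R+2 at 180.

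A difference between the libraries was called when Fisher's exact test (two-sided, reads of a name against the rest of the clean reads) gave a Benjamini-Hochberg adjusted P under 0.05 over the 438 names and NE differed by more than 1 in log2 ratio, in either direction. Of the 9 members 1 was called lower in R, beside 7.76% of the tested names, and 0 were called higher, beside 17.1%. These percents correspond to less than 1 and to between 1 and 2 of 9 names, so both counts lay near the share in the table and are not read as a result about the family. The member called was hsa-miR-100-5p, at 416 NE in R against 915 NE in P, 2.20 times as much in P (adjusted P = 5.27e-05, Fisher's exact test), and its share of clean reads was also lower in R. By fold alone the numbers were 1 lower, beside 16.4% of the names, and 0 higher, beside 22.8%. The call was lost with clean reads, where 0 members were called lower (3.88% of the names) and 0 higher (34%). With the reads of all known names 0 were called lower (2.28%), and 3 were called higher (45.7%): oar-miR-99a_R+2, hsa-miR-99b-5p_R-1 and hsa-miR-99b-3p_R+1. With a limit of 0.5 on the NE scale 3 were called lower (10.3%) and 0 higher (27.9%), but for mmu-miR-99a-3p_R+2_1ss9TC and hsa-miR-125b-5p among these the share of clean reads that the test compares was higher in R.

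**Figure D3:**
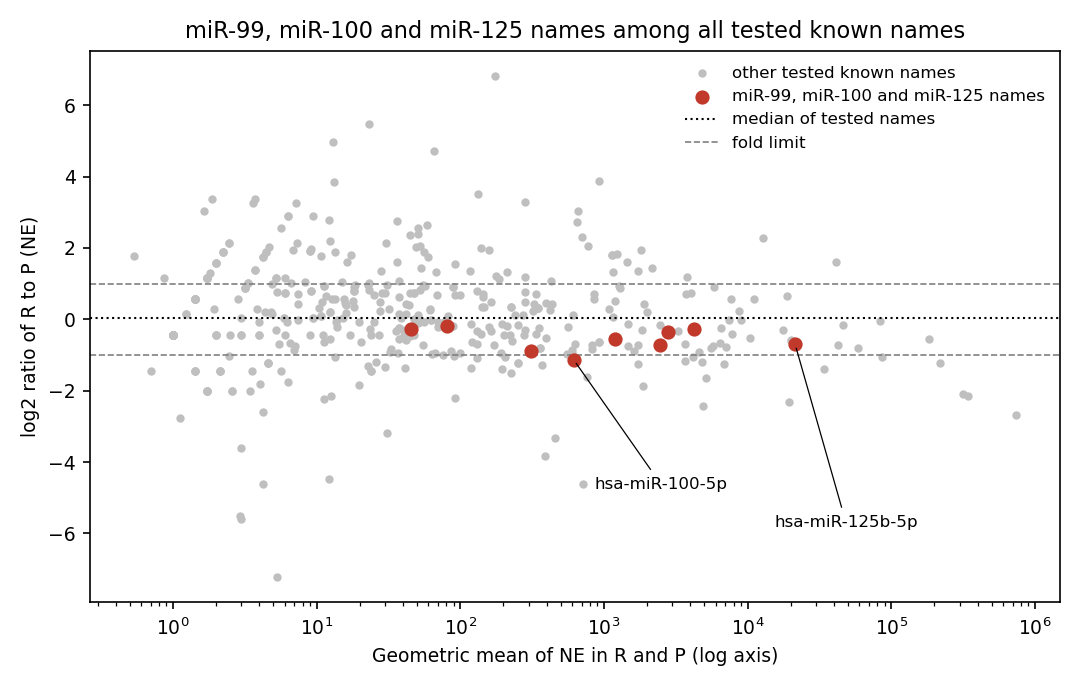
Log2 ratio of R to P on the NE scale against the geometric mean of NE in both libraries (log axis) for the 438 tested known names (grey) and the 9 members (red); dashed lines mark the limits of 1 and -1 and the dotted line the median of 0.03. The members lay between -1.14 and -0.19, and hsa-miR-100-5p was the only one below -1; adding 0.78 (clean reads) or 1.52 (reads of all known names) moves all points up alike.

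Members were next compared with each other, where the scaling cancels. The difference in log2 ratio was taken for each of the 36 pairs, and its exact conditional interval excluded 0 for 21 of them. hsa-miR-100-5p had the lowest ratio, and 7 of its 8 pairs had an interval that excluded 0. Against oar-miR-99a_R+2, which differs from it by T16A alone, its log2 ratio was lower by a difference of -0.86 (-1.04 to -0.68). Against hsa-miR-99b-5p_R-1, with the same seed, the difference was -0.79 (-0.97 to -0.61). The ratio of hsa-miR-99b-5p_R-1 minus that of oar-miR-99a_R+2 was -0.07, with an interval from -0.17 to 0.03. So within one seed the miR-100 strand stood apart from both miR-99 strands, and those did not differ beyond counting error. Reads of miR-99a and miR-100 are separated by that 1 base alone, and how the authors' matching divided reads with an error at it was not tested.

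By seed, the summed NE of the miR-99 and miR-100 5p strands was 6738 in R and 8726 in P, a log2 ratio of -0.37 (-0.42 to -0.33). That of the miR-125b 5p strands was 17098 in R and 27735 in P, a log2 ratio of -0.70 (-0.73 to -0.67). With clean reads both groups were higher in R, at 0.41 and 0.09. The difference between hsa-miR-125b-5p and oar-miR-99a_R+2, the leading strands of each group, was -0.42 (-0.49 to -0.35), whatever the scaling.

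The use of the 3p and 5p arms was compared within each library. For miR-99a there were 0.256 reads of the 3p name per read of the 5p name in R (0.240 to 0.274) and 0.313 in P (0.293 to 0.333). The ratio in R was 0.820 times that in P, with an exact conditional interval of 0.748 to 0.899, so that miR-99a showed relatively less of the 3p strand in the R library. For miR-99b the ratios were 0.0306 in R and 0.0274 in P, and the interval of their quotient, 0.808 to 1.55, included 1. For miR-125b-2 they were 0.113 in R and 0.115 in P, with a quotient between 0.924 and 1.04. The last ratio sets the 3p strand of 1 precursor against a 5p strand that both miR-125b precursors can give. The hairpins thus differed in arm use by more than the libraries did: miR-99a gave 3.90 reads of 5p per read of 3p in R, and miR-99b gave 32.7.

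**Figure D4:**
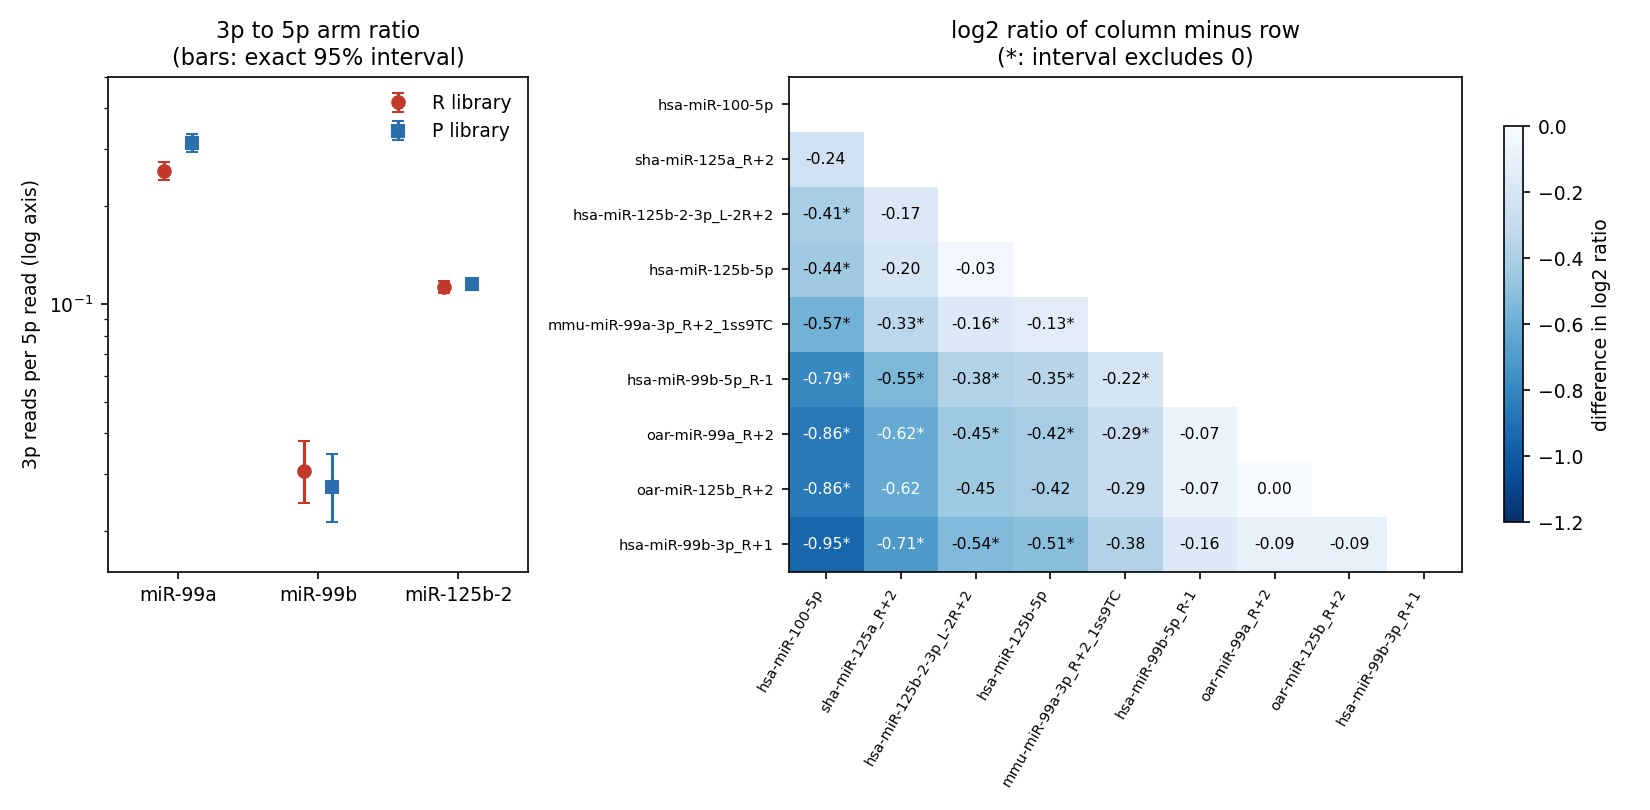
Left, reads of the 3p name per read of the 5p name (log axis) for the 3 hairpins in R (red circles) and P (blue squares) with exact 95% intervals; right, the log2 ratio of R to P of the name in the column minus that of the name in the row, with a star where the exact conditional interval excludes 0. The miR-99a points, at 0.256 and 0.313, have intervals that do not overlap, and the column of hsa-miR-100-5p runs from -0.24 to -0.95.

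The end variants of miR-125b 5p were read as shares of the reads of the 3 names that begin with the whole listed strand. hsa-miR-125b-5p held 98.4% in R (98.2% to 98.6%) and 98.3% in P (98.1% to 98.4%). The form with AA added held 1.34% in R (1.18% to 1.51%) and 1.53% in P (1.38% to 1.70%), and the form with T added held 0.244% in R and 0.180% in P. The differences in log2 ratio between each longer form and hsa-miR-125b-5p had intervals that included 0, so no shift of the 3′ end was detectable at this depth. A listed name stands for a cluster of reads, and other end forms within a cluster were not analysed here.

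The members were then set beside the genes they neighbour. In the RefSeq annotation of assembly ARS1.2, which was used for names and order alone, MIR125B, MIRLET7C and MIR99A follow each other inside 1 long non-coding RNA gene, MIR99B is next to MIRLET7E, and MIR100 lies in a further long non-coding RNA gene. oar-let-7c had 44266 NE in R and 76656 NE in P, a log2 ratio of -0.79 (-0.81 to -0.78). The ratio of oar-miR-99a_R+2 was above that of its neighbour oar-let-7c by 0.52 (0.45 to 0.58), and that of hsa-miR-125b-5p by 0.10 (0.06 to 0.13), while hsa-miR-125b-2-3p_L-2R+2 and oar-let-7c differed by 0.07, with an interval of -0.02 to 0.15. The 3p strand of miR-99a, in turn, differed from its 5p strand by -0.29 (-0.42 to -0.15). The strands of this cluster therefore did not keep 1 common ratio between the libraries, and that of the miR-99a 5p strand was the highest of those compared here. The less abundant let-7c names, given in the next paragraph, were not among these and had higher ratios. Both let-7c and miR-125b 5p can also come from other precursors, whose share was not tested.

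In mammals miR-100 is clustered with a let-7a gene. oar-let-7a had 151415 NE in R and 223063 NE in P, a log2 ratio of -0.56 (-0.57 to -0.55), and that of hsa-miR-100-5p differed from it by -0.58 (-0.74 to -0.41). The share of the oar-let-7a reads that came from the clustered gene was not tested. The 7 let-7a and let-7c names together had 204876 NE in R and 312560 NE in P, a log2 ratio of -0.61, beside -0.62 for the 9 members. With clean reads these were 0.17 and 0.16. Of these names 3 less abundant let-7c names had a higher NE in R: mmu-let-7c-5p_R+2_1ss17AG with a log2 ratio of 0.27 (0.07 to 0.47), mmu-let-7c-2-3p_L-1R+1 with 0.96 (0.17 to 1.81) and mmu-let-7c-1-3p with 0.69 (-0.18 to 1.61). A let-7a name, hsa-let-7a-2-3p_R+1, had 1 read in R and 0 in P.

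The miR-10 strands, sequence relatives of miR-99 and miR-100, had lower ratios. oar-miR-10a_R+1_1ss12TA had 153959 NE in R and 657181 NE in P, a log2 ratio of -2.09, and oar-miR-10b_L+1R-1 had 160642 NE in R and 718168 NE in P, a log2 ratio of -2.16. These names list 1 and the same sequence, so reads of that sequence cannot be told apart, although the deposited values of the names differ. By its tag the first carries a substitution against its miR-10a reference, so its label is not settled by sequence. They stayed lower in R with clean reads and with the reads of all known names, where the 4 miR-10a and miR-10b names together gave log2 ratios of -1.34 and -0.60. Of the 3p names, hsa-miR-10a-3p_R-1 was higher in R on each scale, with 173 NE in R, 100.01 NE in P and a log2 ratio of 0.79 (0.42 to 1.17). That of hsa-miR-10b-3p_L-1 was -0.14, with an interval from -0.52 to 0.24, and turned to 0.64 with clean reads and 1.38 with the reads of all known names.

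The known names with the most similar ratios were sought among those with at least 100 reads in each library, over these 2 libraries. Nearest to the members' median were oar-let-7a (-0.56), sha-let-7i_R+1 (-0.59) and mmu-let-7i-5p (-0.59). Nearest to hsa-miR-100-5p were hsa-miR-192-5p (-1.17), mdo-miR-181b-5p (-1.19) and age-miR-19a_1ss23AT (-1.08). A single ratio of 2 libraries is a weak measure of likeness.

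Marker lists of epithelium and muscle differed between the libraries by more than the family did. The epithelium list, with 10 of its 11 miRNAs named in the table, summed to 38573 NE in R and 6977 NE in P, led by hsa-miR-141-3p_R-1, with 11 of 16 names called higher in R and 3 at 0 in P. The ciliated epithelium list summed to 4872 NE in R and 1234 NE in P, led by hsa-miR-34c-5p, with 3 of 8 names called higher and 3 at 0 in P. Both lists were higher in R on each of the 3 scales. The smooth muscle list, miR-143 and miR-145, summed to 292429 NE in R and 1879525 NE in P, led by aja-miR-143_1ss22GT, with all 4 names called lower. The striated muscle list summed to 292 NE in R and 7263 NE in P, led by oar-miR-133_L+1, with 4 of 5 names called lower and cfa-miR-208a_R-1 at 0 in R. Both muscle lists were lower in R on each scale. Among all 438 tested names 17.1% were called higher and 7.76% lower in R. The names at 0 in 1 library were not tested. In the other library they had few reads, from 1 for hsa-miR-183-3p_L-1 to 14 for bta-miR-449b_R+4. No names for miR-133b, miR-206 and miR-208b were in the table, and miR-499 was listed as miR-499a, which the matching by exact name left out. hsa-miR-499a-5p had 63.6 NE in R and 130 NE in P, a log2 ratio of -1.03, and with both miR-499a names added the striated muscle list had a log2 ratio of -4.37 in place of -4.64.

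On the NE scale the other lists moved less. The fibroblast list, led by oar-miR-199a-3p, summed to 105250.2 NE in R and 101394 NE in P, a log2 ratio of 0.05, with 0 of 7 names called. The blood cell list summed to 18333 NE in R and 14843 NE in P, led by cgr-miR-142-5p_L-2R+1 in R and cgr-miR-486-5p in P. Of its 9 names 2 were called higher, beside 17.1% of the tested names, and oan-miR-223-3p_1ss22AT had 1 read in R and was at 0 in P. The 2 called were the miR-142 names, each of which has 2 entries that this sum adds. Lower in R on the NE scale were cgr-miR-486-5p (-0.68), hsa-miR-144-5p_L+2R-3 (-0.80) and cgr-miR-144_L+2R-3 (-0.80), where both miR-144 names have equal values. The other miR-144 names, aja-miR-144 and hsa-miR-144-3p, also with equal values, were higher in R, at 0.35. With clean reads cgr-miR-486-5p turned to 0.11, and the names at -0.80 stood at -0.02. The endothelium list, miR-126, summed to 32862 NE in R and 21303 NE in P, a log2 ratio of 0.63, with 0 of 4 names called. With clean reads the fibroblast, blood cell and endothelium lists had log2 ratios of 0.84, 1.09 and 1.41. With the reads of all known names these were 1.58, 1.83 and 2.15, larger in size than the -1.16 of smooth muscle. The summed ratio of the family, -0.62, lay between those of the muscle lists, -2.68 and -4.64, and those of the fibroblast, blood cell and endothelium lists. The part of a different make-up of the pooled tissue in the family's ratios was not tested.

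**Figure D5:**
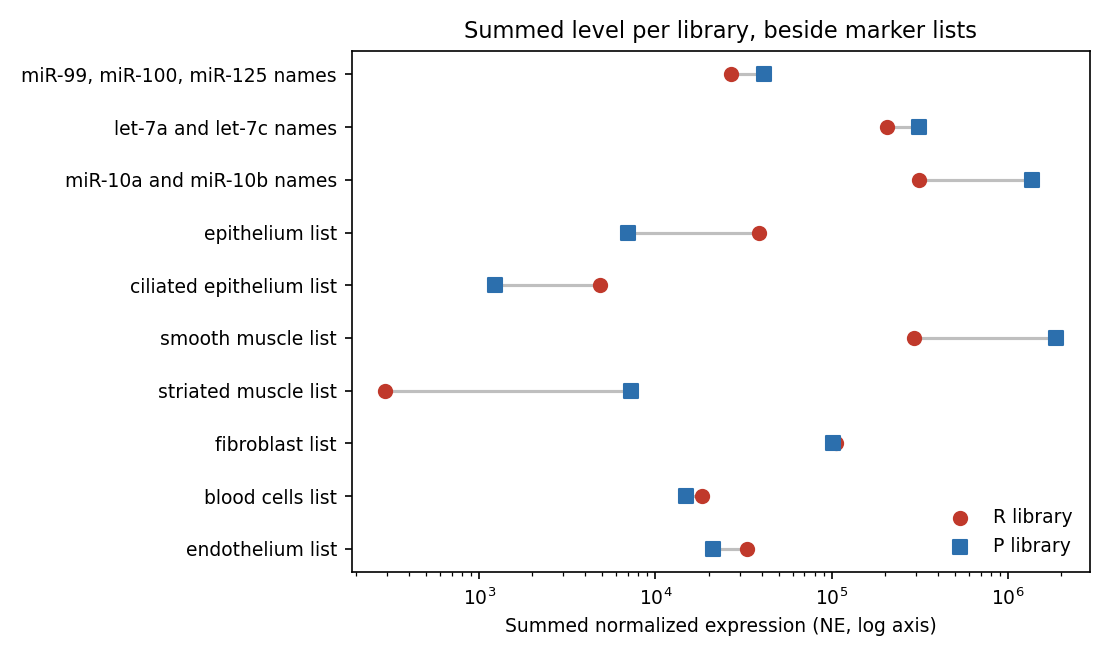
Summed NE (log axis) in R (red circles) and P (blue squares) of the 9 members, of the let-7a and let-7c names, of the miR-10a and miR-10b names and of 7 marker lists. The epithelium list (38573 against 6977 NE) lay higher in R and the smooth muscle list (292429 against 1879525 NE) lower in R on each of the 3 scales, while the family, at 26797 against 41140.4 NE, was lower in R on the NE scale and higher with clean reads.

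The deposited table of conserved precursors listed the family in 18 of 23 species. miR-100 was listed for 13 species, miR-125b for 12, miR-99a for 8, miR-99b for 3 and miR-125a for 1, the Tasmanian devil. For the sheep, the nearest relative of the goat in the table, miR-99a and miR-125b were listed. A species can lack an entry in a database for other reasons than lacking the gene.

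In the deposited target predictions for differentially expressed miRNAs, hsa-miR-100-5p was the only one of the 9 names. It was paired with 93 target identifiers, beside a median of 578.5 and a range of 81 to 1331 over the listed names, and 1 name had fewer. Each of the 93 was also listed for at least 1 other name. Sharing was common in the whole list: the median number of names per identifier was 8 over all identifiers and 15 for those of miR-100. Of the 93, 12 were shared with oar-miR-10a_R+1_1ss12TA, which is 12.9% of the identifiers of miR-100 and 1.72% of the 697 listed for that name. Those 697 are 9.16% of the 7608 distinct identifiers in the table, so this overlap is not read as particular to the pair. The identifiers were not matched to gene names here. The miR-99a and miR-99b 5p strands, which have the seed of miR-100, were not among the names for which targets were listed.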

How the data were processed

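Small RNA of 1 R and 1 P library was analysed from the deposited tables. After filtering and matching to miRBase precursors, the authors deposited a normalized signal (NE) for each library. NE over the worth of 1 read gave recovered reads, which were rounded for tests. The 54 names with several entries were counted once, with NE as listed and reads added over entries, and marker sums also add entries. The clean read totals came from the study's methods and results. Members, lists and named miRNAs were chosen with earlier results of these data known. Named miRNAs were all members, let-7a, let-7c and let-7e, miR-10a and miR-10b, names sharing a seed, and the 3 names nearest in log2 ratio to miR-100 and to the members' median. Marker lists covered epithelium, ciliated epithelium, smooth and striated muscle, fibroblasts, blood cells and endothelium. Alternatives were other scalings, tests, limits, filters and pseudocounts. The calls were tested on simulated data in which the fold and Fisher's test shared the same scale. In the deposited data these scales differ by 0.78 in log2 ratio, so the simulation does not cover calls where they point apart. The 4 per-library columns of 2 further tables were not used: the headings in the candidate table are the reverse of those elsewhere, and the other table holds the authors' fold changes and P-values. The R and P headings of the known miRNA table were taken as given. The study prints values of the same names under the same headings, and an exchange of them would turn every direction from R to P. Calculations ran in Python 3.11.15 with scipy 1.17.1, pandas 2.3.3 and numpy 2.4.6, and plots were drawn with matplotlib 3.10.9.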

Additional observations from a re-analysis of the deposited data

How the results depend on the processing

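The scaling between the libraries decided the direction of the family. With reads divided by clean reads the summed log2 ratio was 0.16 and the median 0.22, and with reads divided by those of all known names they were 0.90 and 0.96. Without the 3 most abundant names in that total, a setting chosen after the data were seen, they were -0.12 and -0.0598. With the median of the tested names set to 0 the sum was -0.65, and without the most abundant member it was -0.48. The number of members called lower was 0 with clean reads, 0 with the reads of all known names and 0 without the 3 names, and 3 with a limit of 0.5. At that limit the test and the ratio point apart for mmu-miR-99a-3p_R+2_1ss9TC and hsa-miR-125b-5p, whose shares of clean reads were higher in R. The number called higher was 3 with the reads of all known names. The exact binomial test, unadjusted P, fold alone, both filters and a pseudocount of 1 NE left 1 lower and 0 higher.

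With clean reads and with the reads of all known names, in this order, the log2 ratio became 0.51 and 1.25 for oar-miR-99a_R+2, 0.22 and 0.96 for mmu-miR-99a-3p_R+2_1ss9TC, 0.44 and 1.18 for hsa-miR-99b-5p_R-1, 0.60 and 1.34 for hsa-miR-99b-3p_R+1, 0.0870 and 0.83 for hsa-miR-125b-5p, 0.0586 and 0.80 for hsa-miR-125b-2-3p_L-2R+2, and 0.52 and 1.26 for oar-miR-125b_R+2. With the reads of all known names it became 0.39 for hsa-miR-100-5p and 0.63 for sha-miR-125a_R+2. The shift comes from the totals themselves, and why they differ was not tested. With miR-499a counted as miR-499, a choice added after the data were seen, the striated muscle list gave -4.37. Counting by name alone, hsa-miR-125b-5p held 99.8% in R and 99.8% in P. Keeping fractions of a read left each pair difference and arm ratio within its interval. No paired analysis was possible because each group has 1 library. On the NE scale the intervals of the rarest names, oar-miR-125b_R+2 and hsa-miR-99b-3p_R+1, included 0.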
